A study of Homo sapiens with 4 samples.

Results

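The PEG10 imprinted locus is described here by every ONECUT2 peak that overlapped PEG10 or the 100 kb on either side of it. In the hg19 build PEG10 runs on the plus strand of chromosome 7, at chr7:94285637-94299006, and the window is chr7:94185637-94399006, a stretch of 213 kb. The window was set by position alone, without use of any peak value. It held 8 of the 30718 entries in 3 peak lists: 2 of 14431 peaks of replicate 1, 5 of 11990 peaks of replicate 2 and 1 of 4297 regions of the list from an irreproducible discovery rate (IDR) procedure. The lists come from chromatin immunoprecipitation with sequencing (ChIP-seq) of ONECUT2 in 22Rv1, an established human castration-resistant prostate carcinoma line. The study has 2 ChIP libraries, made with a rabbit anti-ONECUT2 antibody, and 2 input DNA libraries, all from formaldehyde-fixed 22Rv1 cells with no treatment named. None of the 4 libraries is from cells lacking ONECUT2 or from a control antibody, so input DNA is the only control. Separate cultures are not stated for the replicates, and the spread between them may be technical.

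ONECUT2 is a transcription factor that binds DNA through a CUT domain and a homeodomain, and it is known in the prostate for its activity in castration-resistant and neuroendocrine tumours. PEG10 (paternally expressed gene 10) derives from a retrotransposon and encodes Gag-like and Gag-Pol-like proteins from overlapping frames by ribosomal frameshifting. It is needed for placenta formation, and high PEG10 levels are known from neuroendocrine prostate cancer. As an imprinted gene it is normally expressed from the paternal copy. PEG10 shares a CpG island promoter region with SGCE, the epsilon-sarcoglycan gene, which is read in the opposite direction and is also paternally expressed, and the maternal copy of this island is methylated. In RefSeq's gene order, SGCE is the protein-coding gene just before PEG10 and PPP1R9A, which encodes the actin-binding protein neurabin, is the next one after it. Before SGCE comes CASD1, which encodes a sialic acid O-acetyltransferase. The peak lists do not separate parental alleles.

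All 3 lists had a peak over the start of PEG10, and this was the only place in the window marked in more than 1 list. In replicate 1 it was a single peak, chr7:94285423-94286947, 1525 bp wide, which began 214 bp before the PEG10 start and ended 1310 bp past it. In replicate 2 the same stretch held 2 peaks. The larger, chr7:94285759-94286778, was 1020 bp wide and lay wholly inside PEG10. The smaller, chr7:94285431-94285662, was 232 bp wide and reached only 25 bp past the start. The IDR region, chr7:94285786-94287079, was 1294 bp wide and also lay wholly inside PEG10. The replicate 1 peak thus covered both replicate 2 peaks in full, including the 96 bp between them. On the rest of chromosome 7, 58 of the 614 replicate 1 peaks that overlapped replicate 2 peaks met 2 or more of them (9.45%).

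The summits of the 3 wide calls lay close together, just downstream of the PEG10 start. The summit, the position of highest pileup, was 635 bp past the start in replicate 1, 741 bp past it in replicate 2 and 695 bp past it in the IDR list. The replicate summits were 106 bp apart, against a median of 86.5 bp over the 614 overlapping pairs on the rest of chromosome 7, of which 43.3% had summits farther apart. The smaller replicate 2 peak had its summit on the other side of the start, 116 bp before it and 857 bp from the summit of its larger neighbour. The part of PEG10 beyond this place, its last 12.1 kb in replicate 1 and 12.2 kb in replicate 2, held no peak in either list. The wide peaks covered 9.81% and 7.63% of the gene.

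**Figure D1:**
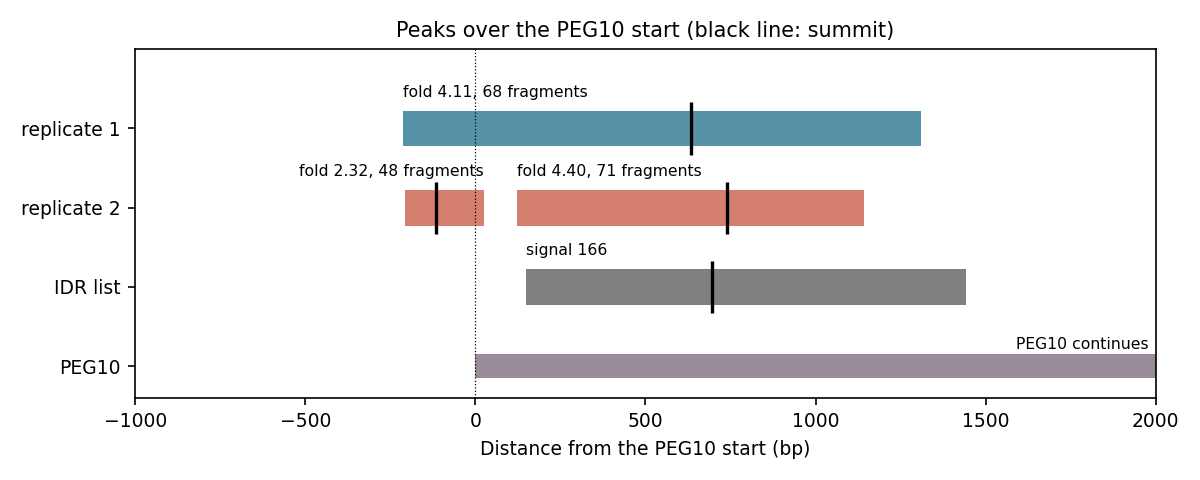
Peaks over the start of PEG10 in the 3 lists, as boxes to scale against the distance from the PEG10 start in bp, with a black line at each summit. The 3 wide calls have summits 635, 741 and 695 bp past the start, while replicate 2 has a second, narrow peak whose summit is 116 bp before it.

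Enrichment over the PEG10 start was moderate and nearly equal in the replicates. The authors' fold enrichment, the ratio of ChIP pileup at the summit to the local input background, was 4.11 in replicate 1 and 4.40 in replicate 2, or 4.26 ± 0.201 (SD, n = 2). The number of ChIP fragments at the summit, recovered from the deposited fold and −log10 p, was 68 in replicate 1 (95% Poisson interval 52.8 to 86.2) and 71 in replicate 2 (interval 55.5 to 89.6). These intervals and those below cover counting error only. The ratio of fragments, replicate 2 over replicate 1, was 1.04 with an exact interval of 0.738 to 1.48, so no difference in these counts was detectable at this depth. The counts were not scaled for library size, since library totals are not given. Over the 614 overlapping pairs on the rest of chromosome 7 the median ratio was 1.0 (quartiles 0.883 to 1.15). The deposited −log10 q was 18.6 and 21.0. The smaller replicate 2 peak just before the start had a fold enrichment of 2.32 with 48 fragments (interval 35.4 to 63.6) and a −log10 q of 4.24.

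The input background under these peaks was well above the lowest level of the lists. It stood at 15.8 fragments in replicate 1 and 15.4 in replicate 2 under the wide peaks and at 20.1 under the smaller replicate 2 peak, against a smallest value of 4.37 and 4.87. That smallest value is a floor shared by many peaks, 24.6% in replicate 1 and 36.3% in replicate 2 on the rest of chromosome 7. At such peaks the local input is not resolved, and the fold follows from the fragment number alone. Of the peaks on the rest of chromosome 7, 66.5% in replicate 1 and 79.9% in replicate 2 had a lower background than the wide PEG10 peak. The smaller peak had only 8.08% of replicate 2 peaks below it in fold enrichment but 82.4% below it in fragments. The ratio of the backgrounds, replicate 2 over replicate 1, was 0.975 at the wide PEG10 peaks. On the rest of chromosome 7 its median was 1.11 (quartiles 1.08 to 1.14), and 84 of the 614 pairs (13.7%) had a lower ratio. That median is also the ratio of the 2 floors, 4.87 over 4.37. At pairs on the floor in both lists the ratio is therefore fixed and not a measured difference in input. No counting error was set on the backgrounds, so whether PEG10 differs from the other pairs cannot be told. The ratio of fold enrichments was 1.07 at PEG10, against a median of 0.919 (quartiles 0.801 to 1.08) elsewhere on the chromosome. Replicate 2 had the higher fold at 36.5% of the pairs there. The part that the unequal backgrounds have in this order was not tested.

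**Figure D2:**
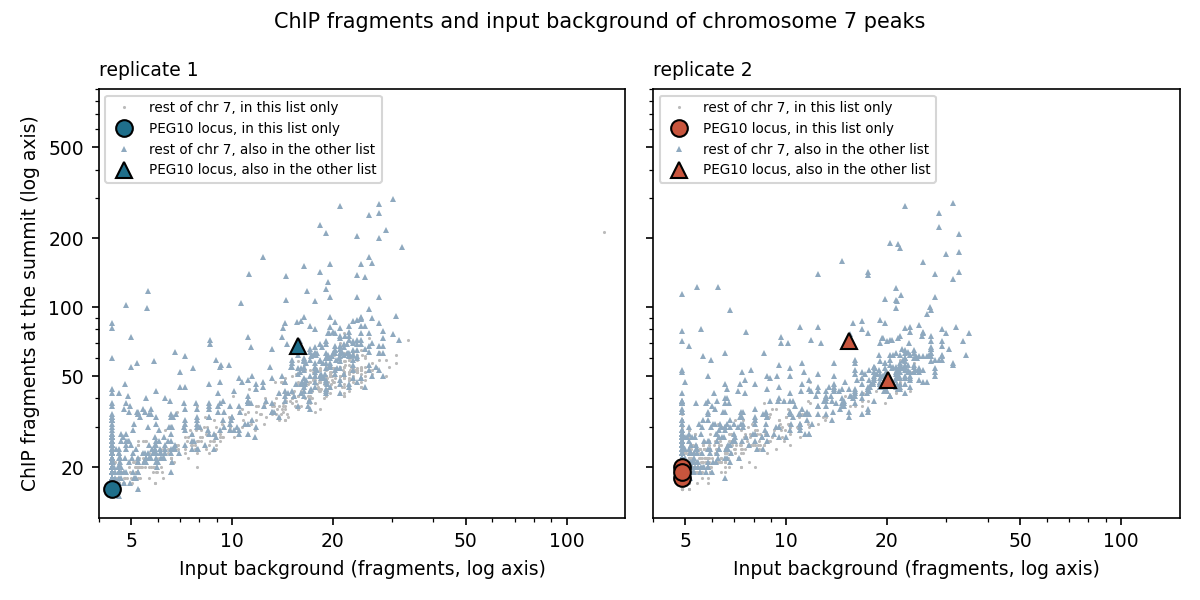
ChIP fragments at the summit against the input background, both in fragments on log axes, for all chromosome 7 peaks of each replicate. Large symbols are the PEG10 locus: the triangles are the start peaks (68 fragments in replicate 1, 71 and 48 in replicate 2), and the circles are peaks found in 1 list only, at the smallest background of each list with 16 to 20 fragments.

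Next, the wide peak over the PEG10 start was set beside the rest of chromosome 7 in each replicate. It ranked higher by width than by fold in both lists, while the smaller replicate 2 peak was wider than 38.9% of peaks there. The median width on the rest of the chromosome was 293.5 bp in replicate 1 (1174 peaks, quartiles 212 to 513 bp) and 274.5 bp in replicate 2 (1274 peaks, quartiles 203 to 430 bp). The PEG10 start peak was wider than 96.8% of these in replicate 1 and its larger counterpart wider than 94.0% in replicate 2, ranks 38 and 78 on the chromosome. Its fold enrichment exceeded that of 83.5% and 85.9% of peaks, ranks 195 and 181. By −log10 q it exceeded 92.8% and 95.2%, ranks 86 and 62. These are ranks within each list and not tests, since peaks of 1 library are not replicates.

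Among the widest peaks the fold enrichment at PEG10 was on the low side. In replicate 1, 38 peaks on the rest of the chromosome were at least as wide, with a median fold of 6.86 (quartiles 4.72 to 9.81), and 9 of them had a lower fold than PEG10. In replicate 2, 77 peaks were at least as wide as the larger PEG10 peak, with a median fold of 5.49 (quartiles 3.89 to 7.93), and 22 of them had a lower fold. Among peaks over a like background it was on the high side. Of 198 replicate 1 peaks whose background was within 20% of that at PEG10, with a median fold of 2.70, 90.9% had a lower fold than PEG10. Of 105 such replicate 2 peaks, with a median of 2.63, 90.5% did. The PEG10 start peak was found in both replicates, so peaks that overlapped the other list are a closer comparison. Of the 614 in replicate 1, 71.7% had a lower fold and 93.8% were narrower. Of the 632 in replicate 2, these shares were 77.2% and 87.8%.

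**Figure D3:**
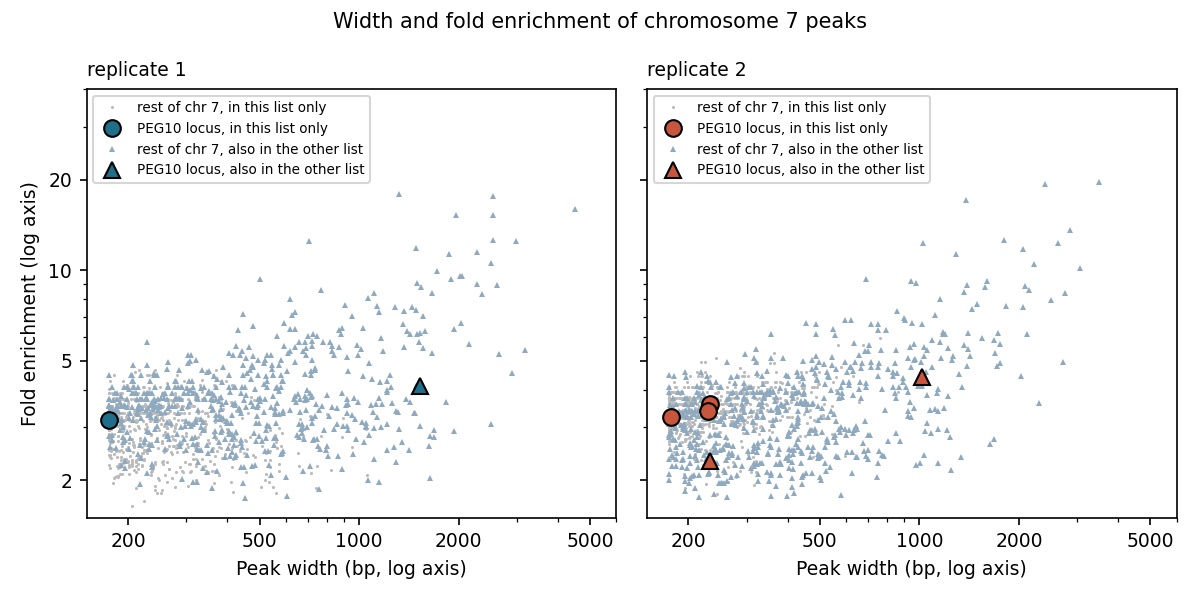
Fold enrichment against peak width in bp, both on log axes, for all chromosome 7 peaks of each replicate. The PEG10 start peak (large triangle at right in each panel) is wide, 1525 bp in replicate 1 and 1020 bp in replicate 2, with a fold of 4.11 and 4.40, while the other locus peaks are 175 to 232 bp wide.

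The remaining 4 peaks were narrow, and each was found in 1 list only. Replicate 1 had one, chr7:94301070-94301244, which began 2.06 kb past the end of PEG10 and was 175 bp wide, the smallest width on the rest of the chromosome in that list. Its fold enrichment was 3.16, with 16 fragments (interval 9.15 to 26.0) and a −log10 q of 2.60. The nearest replicate 2 peak was 14.3 kb away. In that list peaks at the smallest background were called with as few as 14 fragments, so this peak lay 2 fragments above the lowest call.

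Replicate 2 had the other 3, in a row on the side of PEG10 where SGCE lies. They were chr7:94205905-94206136, chr7:94213538-94213714 and chr7:94220782-94221010, with summits 79.6, 72.1 and 64.8 kb before the PEG10 start. Their fold enrichments were 3.58, 3.24 and 3.41 in that order. They had 20, 18 and 19 fragments (intervals 12.2 to 30.9, 10.7 to 28.4 and 11.4 to 29.7) over the smallest background of the list, where the lowest call had 16 fragments. Since that background is a shared floor, their folds differ only through the fragment numbers. Their −log10 q values were 4.09, 2.98 and 3.53. The nearest replicate 1 peak was 66.4, 71.7 and 64.4 kb away, which for the second and the third is the PEG10 start peak. Whether these positions fall inside SGCE was not analysed here, for want of an hg19 annotation.

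Peaks of this kind were common on the rest of the chromosome. There, 642 replicate 2 peaks had no replicate 1 counterpart, with a median of 21 fragments (quartiles 19 to 25), a median fold of 3.41 (quartiles 3.12 to 3.75) and a median width of 220 bp. Of these, 330 (51.4%) lay at the smallest background. In replicate 1, 155 of 560 unshared peaks (27.7%) did. Summits with near neighbours were also common. Of the replicate 2 peaks elsewhere on the chromosome, 39.7% had at least 2 other summits of that list within 15 kb. This share counts shared and unshared peaks together, and also summits much closer to each other than those of the row before PEG10. Rows of unshared peaks alone were not counted, so the share does not give how common such rows are. The summits of the row before PEG10 were 7.57 and 7.28 kb apart, against a median distance to the nearest summit of 3.04 kb (quartiles 0.740 to 40.6 kb).

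At the locus 1 of 2 replicate 1 peaks (50%, exact Clopper-Pearson interval 1.26% to 98.7%) overlapped a replicate 2 peak by at least 1 bp, and on the rest of the chromosome 52.3% did. In replicate 2 it was 2 of 5 (40%, interval 5.27% to 85.3%), against 49.6%. An IDR region was met by 1 of 2 replicate 1 peaks, against 36.1% elsewhere, and by 1 of 5 replicate 2 peaks, against 29.2%. No peak of the locus reached a fold enrichment of 6, in a chromosome where 5.11% of replicate 1 peaks and 4.00% of replicate 2 peaks did. With 2 and 5 peaks, exact intervals allow shares of up to 84.2% and 52.2%. Both overlapping replicate 2 peaks met the same replicate 1 peak, and peaks of 1 library are not replicates. The intervals therefore show only how little such numbers can say, and no verdict on a difference from the chromosome is drawn.

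The IDR region over the PEG10 start ranked below the middle of its list. Its deposited signal, on a scale the file header does not name, was 166, rank 295 of the 426 regions on chromosome 7 and 3043 of 4297 overall. The median on the rest of the chromosome was 188 (quartiles 159 to 241). Its width of 1294 bp exceeded that of 13.9% of those regions, whose median was 1916 bp. The deposited score was 914, against a median of 1000, the highest score given, on the rest of the chromosome. The region overlapped the wide peak of both replicates, by 1162 bp in replicate 1 and 993 bp in replicate 2, but not the smaller replicate 2 peak. On the rest of the chromosome 56.9% of 425 regions overlapped peaks of both replicates.

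Peaks were not clearly denser at the locus than on the rest of chromosome 7. The window had 9.37 peaks per Mb in replicate 1 (exact Poisson interval 1.14 to 33.9), against 7.44 on the rest of the chromosome between its first and last peak. In replicate 2 it had 23.4 per Mb (interval 7.61 to 54.7), against 8.07. In the IDR list it had 4.69 (interval 0.119 to 26.1), against 2.69. The ratios were 1.26 (exact conditional interval 0.152 to 4.56), 2.90 (interval 0.941 to 6.79) and 1.74 (interval 0.0440 to 9.75). All 3 intervals include 1, and 3 of the 5 replicate 2 peaks were the unshared ones before PEG10. The other 2 met the same replicate 1 peak. These intervals take peaks as independent, but peaks cluster along the chromosome. In replicate 2, 39.7% of peaks outside the window had at least 2 other summits within 15 kb. The intervals are therefore likely too narrow.

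Windows of the same length gave the spread of counts along the chromosome. Of 739 such windows laid end to end along the chromosome on both sides of the locus, 276 (37.3%) held at least 2 replicate 1 summits and 87 (11.8%) held at least 5 replicate 2 summits. At least 1 IDR summit lay in 274 (37.1%). Empty windows made up 43.6%, 42.9% and 62.9% in the 3 lists. Peaks covered 0.797% of the PEG10 window in replicate 1 and 0.886% in replicate 2, against 0.336% and 0.323% of the rest of the chromosome. In the IDR list the values were close, at 0.606% and 0.572%. The start peak made up 1525 of the 1700 bp covered in replicate 1, and its larger counterpart 1020 of 1890 bp in replicate 2.

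**Figure D4:**
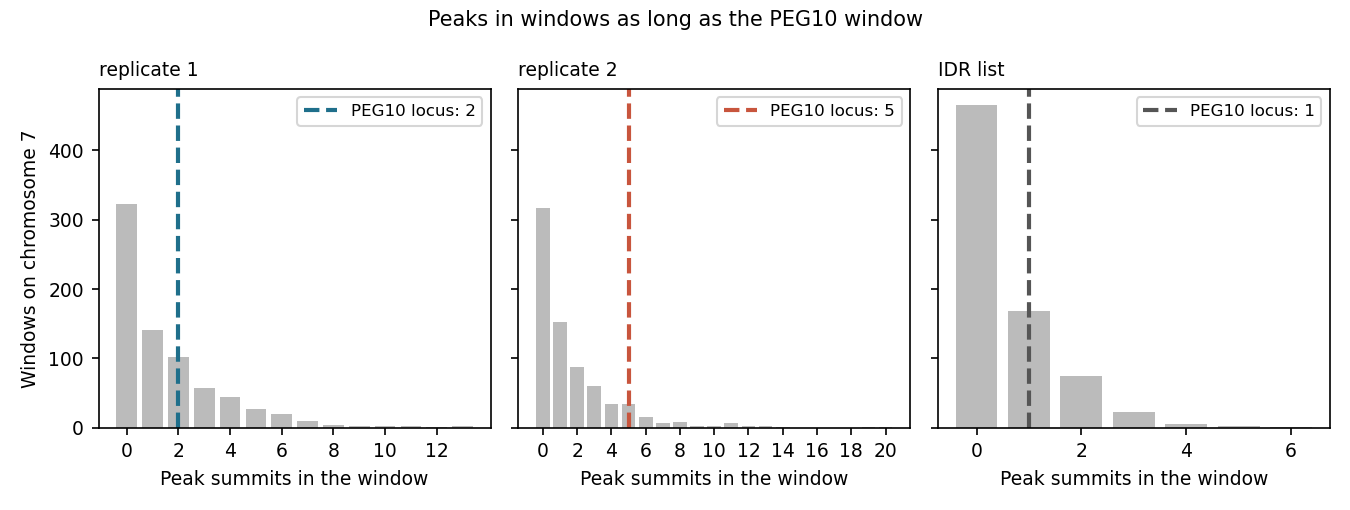
Number of chromosome 7 windows (vertical axis) by the number of peak summits in them (horizontal axis), for windows as long as the PEG10 window, with the PEG10 locus as a dashed line. The locus holds 2, 5 and 1 summits, numbers reached by 37.3%, 11.8% and 37.1% of the 739 other windows.

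The start peak had the smallest q of all peaks within 1 Mb on both sides of PEG10. In this stretch replicate 1 had 23 peaks and replicate 2 had 32, and the wide PEG10 peak was the widest and had the highest −log10 q in both. By fold enrichment it ranked 6 and 4 there, and the highest folds were 6.44 and 6.81. Within 1 Mb, 18 peaks of replicate 1 and 20 of replicate 2 lay beyond the 3′ side of PEG10, against 4 and 11 on its 5′ side, a difference that was not tested. Within 500 kb the counts were 5 on the 3′ side and 3 on the 5′ side in replicate 1, and 1 and 7 in replicate 2, so the order of the sides depended on the distance taken. The nearest peaks outside the window on the 5′ side were 146 kb from the PEG10 start in replicate 1 and 202 kb in replicate 2. On the 3′ side the first peak outside the window lay 238 kb past the end of PEG10 in both lists, and the next IDR region 654 kb past it.

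**Figure D5:**
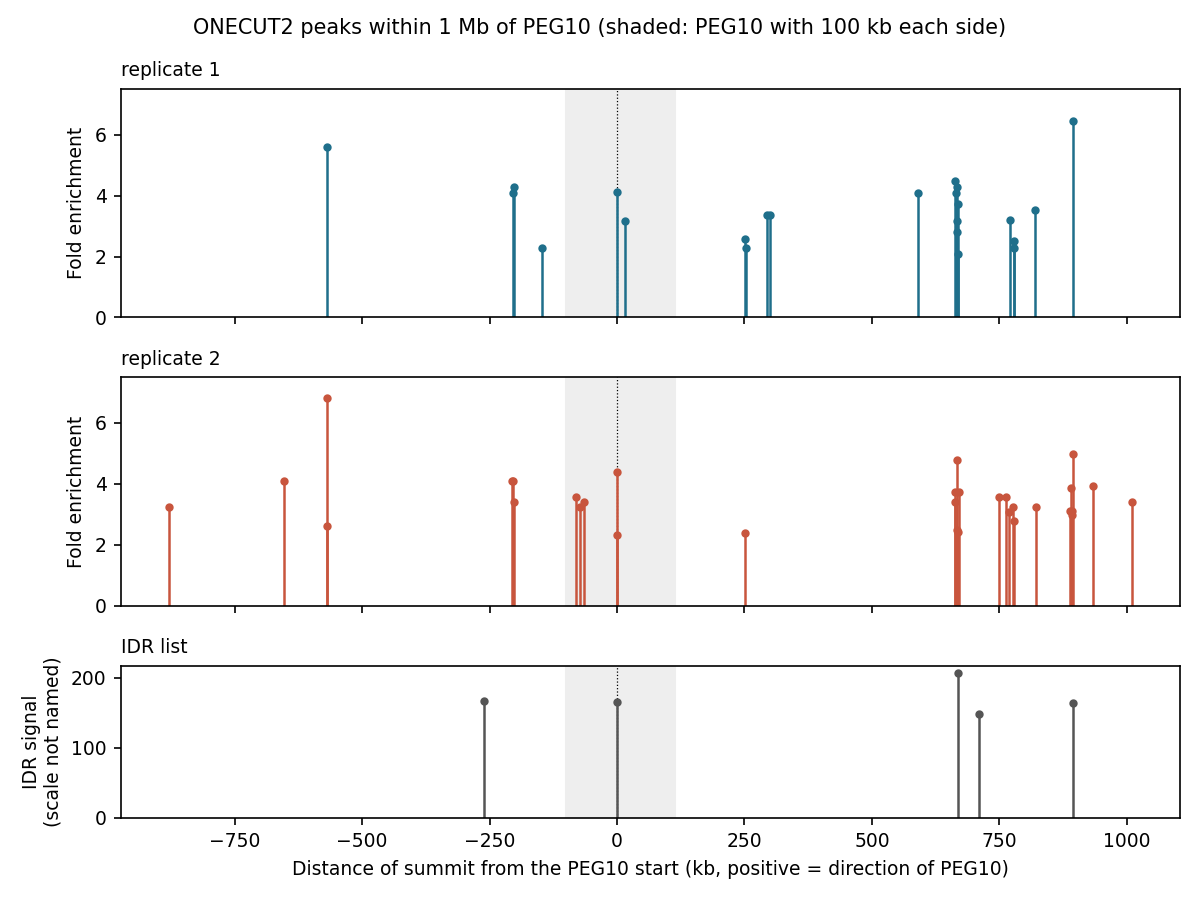
Peaks within 1 Mb of PEG10: each stem is a summit, placed by its distance from the PEG10 start in kb, with fold enrichment as height in the replicates and the deposited signal in the IDR list. The grey band is the PEG10 window, where the start peak recurs in the 3 lists and the first peak beyond the 3′ side of the band lies 238 kb past PEG10 in both replicates.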

How the data were processed

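ONECUT2 ChIP-seq peaks were taken from 3 lists deposited by the authors in hg19. BWA 0.7.13-r1126, Picard and MACS2 2.1.1 are named, without their roles, in the submitters' processing notes. Per the file headers, the replicate lists are MACS2 peaks and the other list is the optimal set of an IDR procedure. Peaks of each ChIP library were called against input, per the labels. The authors gave each replicate peak a fold enrichment (a ratio), a −log10 p and a −log10 q value, and a score. IDR regions have a deposited score and a deposited signal. Calling settings and library totals are not given in the sources used here.

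Positions were counted from 1. Whole fragments n and background b were solved from fold = (n + 1)/(b + 1) and the Poisson upper tail, which fitted within 0.001 on the −log10 p scale at 100% of the 1176 and 1279 chromosome 7 peaks. The step was tested on simulated data. Every peak in the window was named. Comparisons are ranks, exact intervals at 95% and counts per Mb between the first and last peak of the chromosome. No test over peaks was run. The members and comparisons were chosen with earlier results of these data known, and the comparisons by width, like background, windows and spacing after the peaks were seen. Gene order came from RefSeq's GRCh38.p14 table, with names only. Python 3.11.15, scipy 1.17.1 and pandas 2.3.3 were used.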

Additional observations from a re-analysis of the deposited data

How the results depend on the processing

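Of 25 alternative values other than those leaving out a replicate, 15 stayed within tolerance and 10 did not. The tolerance was 1.5 times for numbers of peaks, 1 SD between the replicate lists for ratios and the exact interval for shares. Leaving out 1 of 2 replicates returns the other's value, which is always within 1 SD of their mean, so it says nothing about stability. With −log10 q of at least 5, 1 peak remained in each replicate list (2 and 5 as reported), the wide one over the PEG10 start, and the share of peaks overlapping the other list became 100% in both (50% and 40%). With summits within 100 bp that share was 0% in both, since the start summits were 106 bp apart. A flank of 50 kb left 2 replicate 2 peaks. The ratio of peak density to the rest of chromosome 7, 2.08 ± 1.16 (SD, n = 2 lists), was 3.92 against all other autosomes, 2.28 and 1.24 with flanks of 50 and 200 kb and 1.30 with −log10 q of at least 5. It ranged from 1.26 to 2.90 with either replicate left out. The value of 3.92 has the same locus peaks, set against autosomes with fewer peaks per Mb than chromosome 7. The ratio of median fold to the rest of the chromosome, 1.05 ± 0.0648 (SD, n = 2), was 0.974 with a flank of 200 kb and 1.13 with −log10 q of at least 5, and ranged from 1.00 to 1.09 by replicate. That of median width, 1.87 ± 1.45 (SD, n = 2), was 2.59 and 0.870 with flanks of 50 and 200 kb and 2.89 with −log10 q of at least 5. It ranged from 0.845 to 2.90 by replicate, with replicate 1 the higher, so its direction turned with the wider flank and in replicate 2 alone. The median locus width was 850 bp in replicate 1, the midpoint of 2 peaks of 175 and 1525 bp. In replicate 2 it was 232 bp, so this ratio does not describe the start peak. Apart from the change to other autosomes, the causes of these shifts were not tested. No paired analysis was possible because the lists hold ChIP already compared with input, 1 list for each replicate. Fragment numbers of 16 to 20 limit the precision at the 4 narrow unshared peaks.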
